A study of Mus musculus with 2 samples.

Results

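Long intergenic noncoding RNA genes, annotated as lincRNA in GENCODE M21, were followed in long-read RNA sequencing of the mouse adrenal gland. The genes were chosen by their read counts: a lincRNA gene was taken where its models had 5 reads or more over both libraries together. Malat1, Neat1, Meg3, Rian, Gas5 and genes named Snhg were left out. The choice gave 117 genes among the 16745 annotated genes with at least 1 read. Of 5854 annotated lincRNA genes, 543 had a read, and 535 remained after the named exceptions. Since read counts chose the members, their levels are given as a description and carry no test.

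The study sequenced wild-type C57BL/6J adrenal tissue, with no treatment, in 1 group of 2 libraries that are numbered as biological replicates 1 and 2. The libraries have separate biosamples but 1 shared donor entry, and each test sets 1 library against the other. The p-values below therefore cover counting error only and no spread between replicates, and a difference may be technical. A label calls the tissue male, the sex field was not collected and the age is unknown. No contrast of conditions exists.

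LincRNAs are transcribed from their own promoters between coding genes, and many are capped, spliced and polyadenylated like messenger RNAs. Their known modes of action differ: some hold chromatin factors, some bind proteins or microRNAs in the cytoplasm, and for others the act of transcription matters more than the RNA. Some genes placed in this class carry short reading frames, are copies of coding or ribosomal RNA genes, or lie across a coding gene on the other strand.

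Replicate 1 held 848782 reads and replicate 2 held 545229, so that 1 read was worth 1.18 and 1.83 CPM, counts per 1000000 reads. A count of 0 was given a floor of 3 reads, which is 3.53 and 5.50 CPM. Cortex and medulla markers were abundant in both libraries, whereas all 5 kidney and all 3 liver markers had 0 reads. Their levels differed between the libraries. Nr5a1 (113 and 943 CPM), Dbh (130 and 1031) and Chgb (3881 and 14458) were higher in replicate 2, as were Star, Cyp11a1, Cyp11b1, Cyp21a1 and Chga. Hsd3b1 (11679 and 4561 CPM), Th (2831 and 1489) and Pnmt (694 and 160) were lower. Marker levels of other cells differed too: of 4 macrophage genes, C1qa (152 and 5 reads), Lyz2 (550 and 77) and Cd74 (156 and 36) had less in replicate 2 and Adgre1 (11 and 26) had more. The adipocyte genes Adipoq (14 and 0), Cfd (85 and 0) and Plin1 (72 and 23) and the erythroid gene Hbb-bs (591 and 32) had less there, and the endothelial genes Tie1 (12 and 147) and Plvap (82 and 212) had more. In bulk tissue, fewer cells of a type and less RNA per cell cannot be told apart.

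The 117 lincRNA genes held 3522 reads in replicate 1 (0.415% of all reads, exact Clopper-Pearson 95% interval 0.401% to 0.429%) and 1205 in replicate 2 (0.221%, 0.209% to 0.234%). The mean share was 0.318% ± 0.137 (SD, n = 2). Few genes held much of this. Gm10076 and 3 genes at a ribosomal RNA locus, Gm42418, Gm26917 and AY036118, held 62.4% of these reads in replicate 1 and 40.9% in replicate 2. The other 113 genes had 1324 reads (0.156%) and 712 reads (0.131%). The median member had 9 reads, 27 had at least 20, and 6 had at least 100. The median of the members' mean levels was 6.61 CPM, against 27.0 CPM for the 11112 coding genes with at least 5 reads. Both libraries detected 96 members, 21 were seen only in replicate 1 and 0 only in replicate 2, the shallower library. The same split over all genes is not given here, so it describes these genes and is not read as a trait of lincRNAs. At the threshold, 17 lincRNA genes had 5 reads and 37 had 4.

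**Figure D1:**
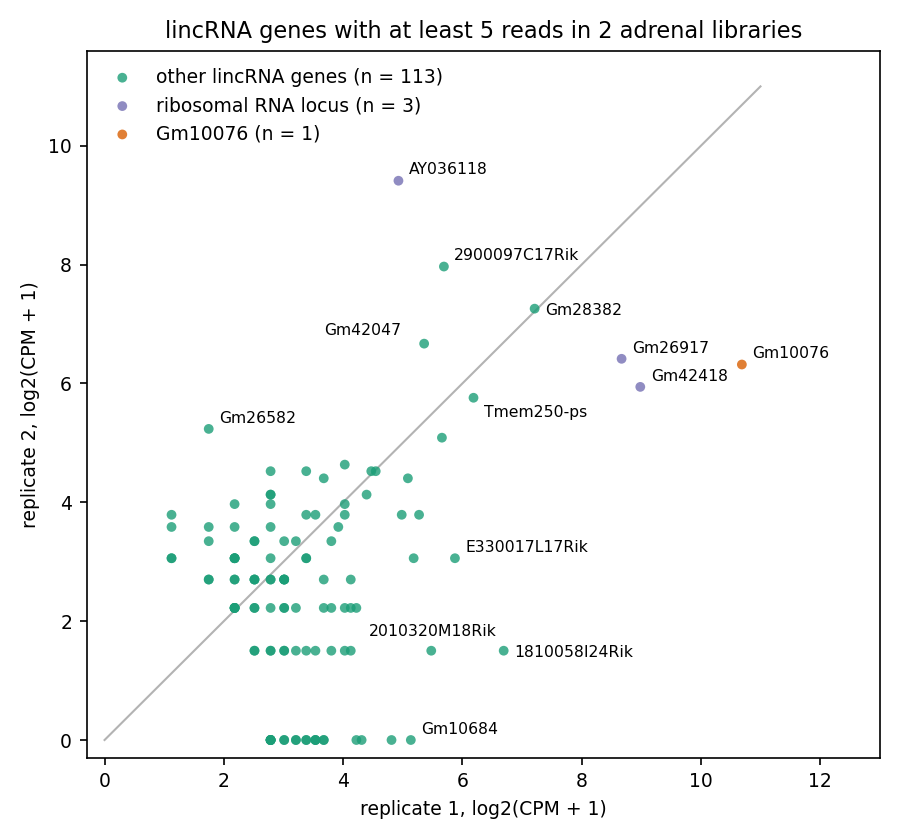
Level of each of the 117 lincRNA genes in replicate 1 (x axis) and replicate 2 (y axis), as log2 of CPM plus 1; each point is a gene, coloured by group, and the grey line marks equal levels. Gm10076, Gm42418 and Gm26917 lie far below the line and AY036118 far above it, while Gm28382 lies on it at 147 and 152 CPM; the row of points at the bottom holds the 21 genes with 0 reads in replicate 2.

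Of the 117 genes, 56 had the 10 reads required for a comparison of the libraries. It used Fisher's exact test, two-sided, on a gene's reads against all other reads, with p-values adjusted over all 9879 annotated genes tested. Replicate 2 was higher for 6 lincRNA genes and lower for 17, while 33 did not pass the threshold of 0.05. These 23 calls (41.1%) stand against 64.4% of all genes tested, of which 36.6% were higher and 27.9% lower. The lincRNA genes were sparsely read, with a median of 17.5 reads against 47 over all genes tested. Of the 17 lower genes, 6 had 0 reads in replicate 2 and so passed the read filter through replicate 1 alone, and their calls are favoured by that choice. Among genes of 10 to 49 reads, 15 of 45 lincRNA genes were called (33.3%), against 47.4% of 5107 genes. The median log2 ratio of replicate 2 over replicate 1, with 1 CPM added, was -0.51 for the 56 genes and 0.38 for all genes. Without Gm10076 and the ribosomal RNA locus, 5 were higher, 14 lower and 33 not called, with a median of -0.44.

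The split between higher and lower genes depended on the scale. With TMM scaling, which moved the median of all genes from 0.38 to -0.05, 4 lincRNA genes were higher and 27 lower, against 27.6% and 33.8% of all genes. Without genomic models, which lie inside a gene without matching its splice structure, 7 of 38 were higher and 11 lower, against 69.7% of all genes called in either direction. The ratio of all genes also varied with transcript length: genes with known models under 1000 bases had a median log2 ratio of -3.38, those of 1000 to 2000 bases -1.41, and longer genes 1.14. LincRNA genes in those length classes had medians of -1.91 (11 genes), -0.16 (14 genes) and -0.33 (12 genes). When the running median over length was removed, 13 of the 37 lincRNA genes with a known-model length were higher, 9 were lower, and their median was 0.89. Of all genes, 19.9% were then higher and 21.2% lower. The other 19 tested genes had no read of a known model. In the comparison without that correction they had a median log2 ratio of -1.48, with 1 higher, 8 lower and 10 not called, where 36.6% and 27.9% of all genes were higher and lower.

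**Figure D2:**
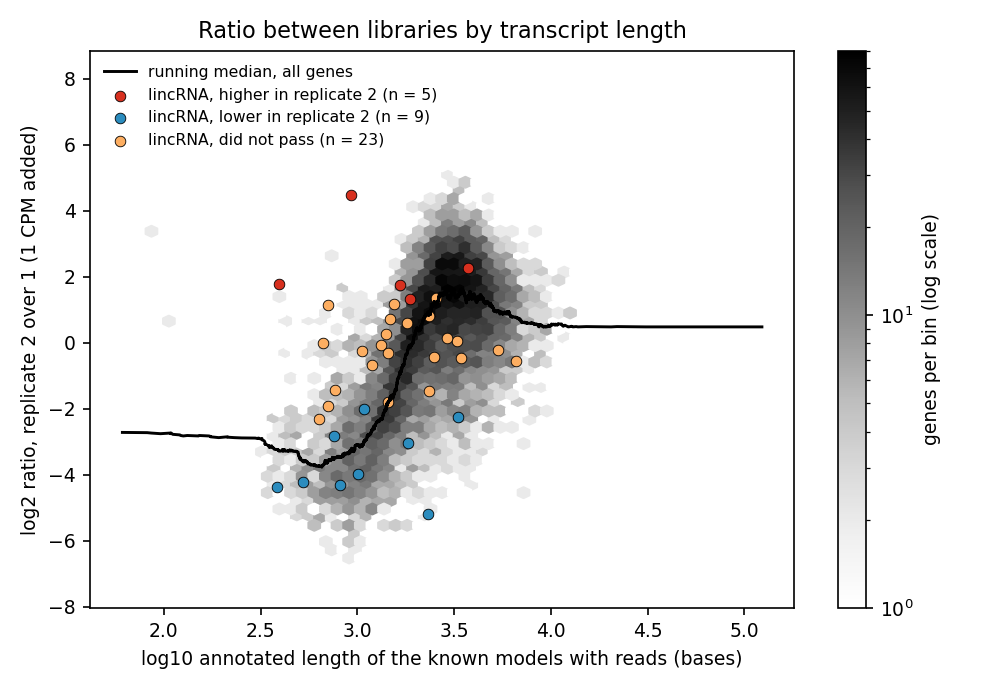
Log2 ratio of replicate 2 over replicate 1 (y axis, 1 CPM added) against the read-weighted annotated length of the known models of a gene (x axis, log10 bases); grey hexagons count all tested genes, the black line is their running median, and circles are the 37 lincRNA genes with a length. The black line is lowest for genes under 1000 bases, climbs to values above 0 and falls back for the longest genes, and lincRNA genes lie on both sides of it.

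The most abundant member by mean level of both libraries, though not in replicate 2 alone, was Gm10076 (ENSMUSG00000060143.7). It is a single-exon gene at chr14:105681828-105682211 on the plus strand. It had 1399 reads in replicate 1 and 43 in replicate 2, which is 1648 CPM (exact Poisson 95% interval 1563 to 1737) and 78.9 CPM (57.1 to 106). It was 20.9-fold lower in replicate 2 (log2 ratio -4.37, Fisher's exact test, adjusted p = 1.63e-234). With the length trend removed the log2 ratio was -1.13 and the call held (exact binomial test, adjusted p = 7.05e-08).

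The annotated transcript of Gm10076 is an almost exact copy of Rpl41, which codes for a very small protein of the large ribosomal subunit. Of 383 aligned bases, 99.5% were identical and 2 differed. The first ATG of Gm10076 opens a frame of 25 codons that is present whole in Rpl41. The frame is printed with its start and stop codons in capitals, followed by the 29 bases around each difference, with the differing base in capitals.
Gm10076 open reading frame (chr14:105681869-105681946, plus strand): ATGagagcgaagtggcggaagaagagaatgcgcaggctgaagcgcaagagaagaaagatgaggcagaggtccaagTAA
Gm10076, first difference: caagtaagccagccTgtgcacctacgacg
Rpl41, first difference: caagtaagccagccCgtgcacctacgacg
Gm10076, second difference: agtagacctggaacAtcacctcgccgcga
Rpl41, second difference: agtagacctggaacGtcacctcgccgcga
Written with the Rpl41 base first and counted from the 5′ end of the 383-base Gm10076 transcript, the substitutions are C126T and G233A, both after the stop codon of the frame. Rpl41 lies on chromosome 10 at 128548114 to 128549305 and had 3031 reads in replicate 1 and 51 in replicate 2. Its log2 ratio of -5.24 ran in the same direction as that of Gm10076. Gm10076 took 31.6% of the reads of the pair in replicate 1 and 45.7% in replicate 2. Of the Rpl41 reads, 3009 and 50 were in spliced models, whereas all reads of Gm10076 were in models with 1 exon. The split of reads between copies this alike is uncertain.

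Gm42418, Gm26917 and AY036118 lie together at chr17:39843013-39848788, where GENCODE also annotates the ribosomal RNA gene CT010467.1 on the minus strand (39846353 to 39848827, with 0 reads of its own). Gm42418 had 429 and 33 reads (505 and 60.5 CPM) and Gm26917 had 345 and 46 (406 and 84.4 CPM), both on the plus strand. AY036118, on the minus strand, had 25 and 371 reads (29.5 and 680.4 CPM). The genes of the plus strand were thus lower in replicate 2 and the gene of the minus strand was higher there. The log2 ratios were -3.04 for Gm42418, -2.25 for Gm26917 and 4.48 for AY036118, with adjusted p from Fisher's exact test of 1.88e-54, 4.84e-32 and 4.88e-116.

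AY036118, of 923 bases, is contained whole in the annotated transcript of CT010467.1, and its reverse complement is contained whole in Gm42418, of 1831 bases. The first 40 bases of AY036118 and the same positions of Gm42418 (chr17:39847996-39848035) are shown because they are the same DNA read on opposite strands.
AY036118, minus strand: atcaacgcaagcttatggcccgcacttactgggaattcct
Gm42418, plus strand: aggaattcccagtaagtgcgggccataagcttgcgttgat
Unannotated models at the locus followed the same pattern: a plus-strand model at 39846353 to 39846958 had 508 and 5 reads, and a minus-strand model at 39843013 to 39845444 had 128 and 180. Over all models at the locus, the plus strand held 1282 of 1435 reads in replicate 1 (89.3%, Clopper-Pearson interval 87.6% to 90.9%) and 84 of 636 in replicate 2 (13.2%, 10.7% to 16.1%). The locus as a whole was at 1691 and 1166 CPM, so the strand differed far more than the amount. No known transcript of the 3 genes ended in a poly(A) signal (AATAAA or ATTAAA in the last 50 bases), while both transcripts of Gm10076 did. Whether the library preparation kept the strand is not given in the sources used here, and its part in these values was not tested. The minus strand of CT010467.1 is that of the annotation, and which strand matches mature ribosomal RNA was not tested.

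**Figure D3:**
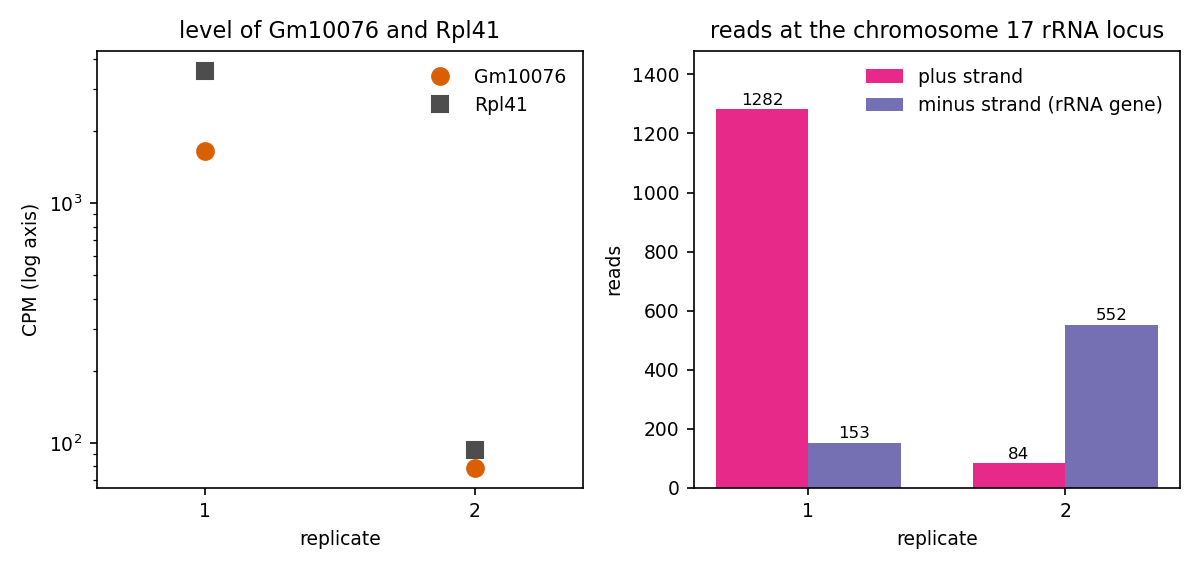
Left, level in CPM (log axis) of Gm10076 (circles) and Rpl41 (squares) in each replicate. Right, reads at the chromosome 17 ribosomal RNA locus on the plus strand and on the minus strand. The ribosomal RNA gene of the legend is CT010467.1, which GENCODE annotates on the minus strand. Which strand matches mature ribosomal RNA was not tested. Both Gm10076 and Rpl41 are lower in replicate 2 (78.9 and 93.5 CPM), and the plus strand has most reads in replicate 1 (1282) while the minus strand has most in replicate 2 (552).

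2900097C17Rik (ENSMUSG00000102869.2, chr2:156388065-156392979, minus strand) is listed as Norad in the RefSeq table, a cytoplasmic RNA known to bind Pumilio proteins through repeated short elements. It had 43 reads in replicate 1 and 136 in replicate 2, which is 50.7 and 249 CPM. The gene was 4.92-fold higher in replicate 2 (log2 ratio 2.28, Fisher's exact test, adjusted p = 1.45e-22), and it stayed higher under TMM scaling (1.85) and, by less, with the length trend removed (0.89). Its long transcript of 4915 bases took 35 and 97 of these reads, and an annotated short transcript of 339 bases took 8 and 38. The long transcript took 81.4% and 71.9% of the reads in known models, a difference that did not pass (Fisher's exact test, adjusted p = 0.623).

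The Pumilio element TGTANATA, searched on the RNA strand, occurred 11 times in the long transcript, or 2.24 times per 1000 bases. Of 8541 lincRNA transcripts in the annotation, 11.3% held it at least once. Among the 134 lincRNA transcripts of 4000 to 6000 bases the median was 0, and 1, the transcript of 2900097C17Rik itself, had as many as 11. The stretch of 260 bases that holds the most elements, 3, is shown with the elements in capitals. A match describes the letters and does not show binding.
2900097C17Rik (chr2:156390517-156390776, minus strand): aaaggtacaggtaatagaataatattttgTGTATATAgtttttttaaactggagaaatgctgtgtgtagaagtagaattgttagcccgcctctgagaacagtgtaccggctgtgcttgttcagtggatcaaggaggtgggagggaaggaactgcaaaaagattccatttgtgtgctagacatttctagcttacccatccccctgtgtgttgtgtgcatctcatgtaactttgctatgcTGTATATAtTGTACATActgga

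1700020I14Rik (ENSMUSG00000085438.1, chr2:119594297-119607502, plus strand) is listed as Oip5os1 in the RefSeq table and is known as Cyrano, an RNA that directs the decay of the microRNA miR-7 through an extended pairing site. It had 42 and 18 reads (49.5 and 33.0 CPM), and its transcript of 8300 bases took 21 and 7 of them. The log2 ratio of -0.57 did not pass (Fisher's exact test, adjusted p = 0.240). It passed as lower under TMM scaling (-0.99) and with the length trend removed (-1.33). The site and miR-7a-5p are shown because their pairing defines this RNA; the match to the seed, bases 2 to 8 of the microRNA, is in capitals in both.
mmu-miR-7a-5p: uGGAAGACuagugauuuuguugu
1700020I14Rik (chr2:119602137-119602161, plus strand): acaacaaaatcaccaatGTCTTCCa
The 25-base site starts at position 2935 of the long transcript and pairs with 22 of the 23 bases of the microRNA. The seed match alone occurred 2 times in this transcript and at least once in 10.7% of lincRNA transcripts. Of the fixed list of cytoplasmic lincRNAs, 3 genes were members. Of the 2 tested, 1 was higher and 1 did not pass, against 64.4% of all genes called and 36.6% higher. Epb41l4aos (9 and 0 reads), which holds a small nucleolar RNA gene, had too few reads to be tested.

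1810058I24Rik (ENSMUSG00000073155.12, chr6:35252654-35263496, plus strand), reported to encode a short mitochondrial protein, had 87 reads in replicate 1 and 1 in replicate 2. These are 102 CPM (82.1 to 126) and 1.83 CPM (0.0464 to 10.2), and the gene was lower in replicate 2 (log2 ratio -5.19, Fisher's exact test, adjusted p = 8.20e-17). The call held with the length trend removed. The first ATG of its main transcript, of 2521 bases and 74 reads, opens a frame of 47 codons, printed here with start and stop codons in capitals because the gene is classed as noncoding.
1810058I24Rik open reading frame (plus strand, exons joined): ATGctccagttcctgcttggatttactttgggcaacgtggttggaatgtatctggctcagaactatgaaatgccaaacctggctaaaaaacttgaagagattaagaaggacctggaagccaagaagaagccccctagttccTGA
A shorter transcript of 1232 bases with 13 reads does not hold the frame. 1810058I24Rik was the only member on the list of genes reported to code small proteins. AW112010, which has been reported to be translated from a start other than ATG and is induced in inflammation, was added after its values were seen. It had 14 and 3 reads, all spliced, and did not pass (log2 ratio -1.43, Fisher's exact test, adjusted p = 0.117). With TMM scaling it passed as lower (-1.82, exact binomial test, adjusted p = 0.0425). With the length trend removed its log2 ratio turned to 2.05 and did not pass. Of the 4 macrophage genes, C1qa, Lyz2 and Cd74 had lower levels and Adgre1 a higher level in replicate 2. Their part in the values of AW112010 was not tested.

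Gm28382 (ENSMUSG00000100151.1, chr1:91483024-91484774, plus strand) had nearly the same level in both libraries and was sixth by mean level among the members. It had 125 and 83 reads, 147 CPM (123 to 175) and 152 CPM (121 to 189), with intervals that overlap, and its log2 ratio of 0.05 did not pass (Fisher's exact test, adjusted p = 0.871). None of the 208 reads followed the annotated transcript, which has 2 exons. Spliced models held 87 and 41 reads. In them 93 reads used the annotated intron of 82 bases, 99 used an unannotated intron of 188 bases inside the annotated second exon, and 44 used an unannotated intron of 2881 bases that leads to an exon past the annotated end. The farthest model ended 3705 bases beyond the annotation, where the pseudogene Gm19085 lies on the other strand.

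The 188-base intron is printed because most spliced reads of the gene skip it; its first and last 2 bases, in capitals, are the usual GT and AG of introns.
Gm28382 intron (chr1:91483511-91483698, plus strand): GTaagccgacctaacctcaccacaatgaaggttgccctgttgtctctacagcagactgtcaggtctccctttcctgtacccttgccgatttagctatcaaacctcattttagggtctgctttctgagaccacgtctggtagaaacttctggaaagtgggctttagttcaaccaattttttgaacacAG
The model that removes both short introns was the most used, and its share is taken over the reads of known, NIC and NNC models together. It had 63 of 75 such reads in replicate 1 (84.0%) and 15 of 27 in replicate 2 (55.6%). NIC models join known splice sites in a new way, and NNC models hold at least 1 new splice site. The difference of -28.4 percentage points did not pass (Fisher's exact test, p = 0.00671, adjusted p = 0.0622). Model use could be tested in 5 lincRNA genes, where each library had 20 such reads or more. By Fisher's exact test 0 of them passed after adjustment, against 9.84% of 2186 genes, and 1, Gm28382, had an unadjusted p under 0.05. With a minimum of 10 reads, 0 of 6 passed, against 7.99% of all genes.

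**Figure D4:**
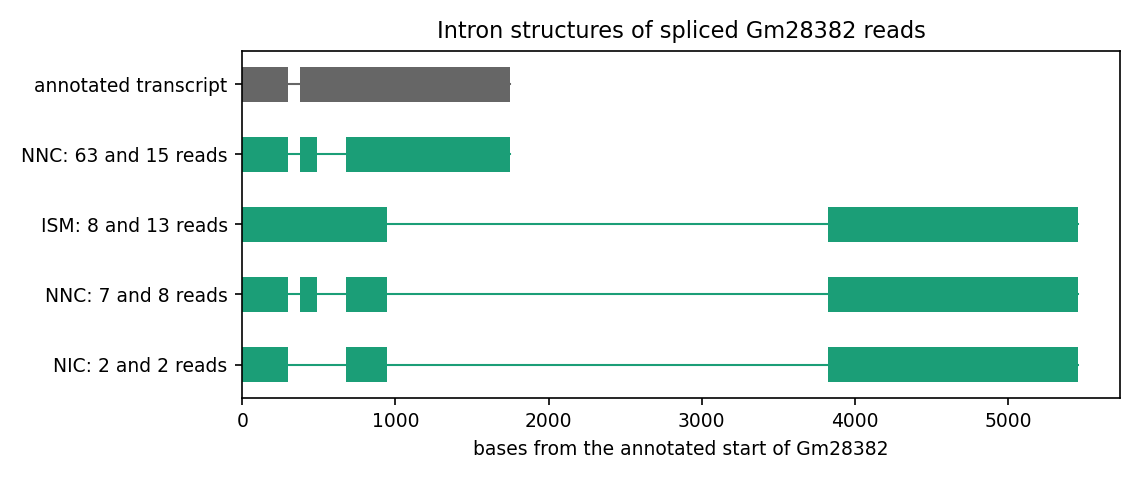
Annotated transcript of Gm28382 (grey) and the 4 most read spliced structures (green) against the distance in bases from the annotated start; boxes are exons, lines are introns, with outer ends set at the annotated start and at the annotated or the farthest end, and the labels give the authors' model class and the reads in replicates 1 and 2. The most read structure, with 63 and 15 reads, carries an extra intron inside the second annotated exon, and the other 3 reach an exon past the annotated end.

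The remaining genes among the 15 of highest mean level behaved in several ways. Gm42047 (34 and 55 reads, 40.1 and 101 CPM) was higher in replicate 2 (log2 ratio 1.31, Fisher's exact test, adjusted p = 4.73e-05); it overlaps the coding model Gm20388 on the same strand, so its reads are uncertain. E330017L17Rik (49 and 4 reads) was lower (-2.82), but its log2 ratio turned to 0.72 and did not pass with the length trend removed. Tmem250-ps had 61 and 29 reads and did not pass (-0.43), although its reads changed class: replicate 1 had 0 known and 61 genomic reads, and replicate 2 had 18 known and 11 genomic. With TMM scaling it passed as lower. Counted from known models alone, it was at least 9.34-fold higher in replicate 2. Gm36723 had 19 and 12 reads, at a log2 ratio of -0.02 that did not pass, and it passed as higher with the length trend removed (3.69, exact binomial test, adjusted p = 5.52e-08).

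The list of lincRNAs with known roles in chromatin and gene regulation held 4 members: Gm26917 at the ribosomal RNA locus, Lncpint, Pvt1 and Dubr. Of these 4, 1 (Gm26917) was lower and 3 did not pass, against 64.4% of all genes called. Lncpint, a p53-induced RNA that binds the repressive Polycomb complex, had 28 and 11 reads (33.0 and 20.2 CPM), of which 21 and 6 were genomic. Pvt1, the neighbour of Myc, had 17 and 9 reads (20.0 and 16.5 CPM), and Dubr, an RNA of muscle cell differentiation, had 7 and 5 (8.25 and 9.17 CPM). Their log2 ratios of -0.68, -0.26 and 0.14 did not pass. With the length trend removed, Lncpint (1.98) and Pvt1 (2.85) passed as higher, and with TMM scaling Lncpint (-1.10) passed as lower. Lncpint was also the only member on the fixed list of microRNA host genes, although no microRNA hairpin lay inside its annotated span. Xist, H19, Miat, Hotair, Hottip and Rmst had 0 reads in both libraries, and a count of 0 is given here the 3-read floor of 3.53 and 5.50 CPM. The lists of the X inactivation centre and of imprinted lincRNAs had 0 members; Jpx (4 and 0 reads), Ftx (3 and 1) and Mirg (1 and 0) lay under the threshold.

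A group of lincRNA genes shared a pair of exon sizes with zinc finger repressor genes. In KRAB zinc finger genes, short exons code for the KRAB domain, which recruits a silencing complex, and the last exon codes for the zinc fingers. Zfp825 on chromosome 13 has this structure, with successive exons of 127 and 61 bases ahead of the last. The same pair of sizes occurred in 121 coding genes (0.549% of 22028), 52 of them named Zfp, in 25 of all annotated lincRNA genes (0.427%), and in 10 of the 117 members (8.55%). This group was chosen after its structures were seen, and the annotated genes, unlike the members, had no read limit. Its genes had 116 reads in all, of which 76, from all 10 genes, ran across the exon pair. In the comparison of libraries 5 were tested, 2 were higher, 1 was lower and 2 did not pass, a share near the 64.4% of all genes called. The lower gene was Gm39469 on chromosome 9 (13 and 1 reads, log2 ratio -2.53, Fisher's exact test, adjusted p = 0.0216). Its call held with TMM scaling (-2.87), and it had no known-model length for the length correction.

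Of the 10 genes, 4 stand in a row on chromosome 13 between 74434781 and 74617945, around Zfp825 (74480054 to 74493992, 12 and 4 reads). From left to right they were E430024I08Rik with 10 and 11 reads, Gm47467 with 3 and 8, Gm47469 with 1 and 7, and Gm46430 with 9 and 7. BC002059 (5 and 12 reads) and Gm5165 (4 and 5) lie on chromosome 17. Gm47467 (log2 ratio 1.79, Fisher's exact test, adjusted p = 0.0462) and BC002059 (1.74, adjusted p = 0.0191) were higher in replicate 2. Both calls were lost with TMM scaling (exact binomial test, adjusted p = 0.179 and 0.0815). With the length trend removed both passed as higher (5.08 and 2.65, exact binomial test, adjusted p = 2.23e-07 and 0.000532). E430024I08Rik (2.48) and Gm46430 (2.23), which had not passed, were then higher too. The 61-base exons of these 6 genes are shown because they can be set beside that of Zfp825; capitals mark bases that differ from Zfp825.
Zfp825 (chr13:74482539-74482599, minus strand): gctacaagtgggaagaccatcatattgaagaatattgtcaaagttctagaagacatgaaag
Gm47467 (chr13:74511094-74511154, minus strand): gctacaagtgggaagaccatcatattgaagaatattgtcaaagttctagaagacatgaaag
E430024I08Rik (chr13:74449956-74450016, minus strand): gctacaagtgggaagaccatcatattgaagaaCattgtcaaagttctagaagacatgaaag
Gm46430 (chr13:74609122-74609182, minus strand): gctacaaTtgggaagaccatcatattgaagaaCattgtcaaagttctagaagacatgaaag
Gm47469 (chr13:74555807-74555867, minus strand): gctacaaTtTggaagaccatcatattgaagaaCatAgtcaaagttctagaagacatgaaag
BC002059 (chr17:16971171-16971231, plus strand): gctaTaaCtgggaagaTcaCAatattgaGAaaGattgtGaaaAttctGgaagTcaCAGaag
Gm5165 (chr17:17262847-17262907, plus strand): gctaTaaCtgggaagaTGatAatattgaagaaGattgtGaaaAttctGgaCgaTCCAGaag
The exon of Gm47467 was identical to that of Zfp825, those of E430024I08Rik, Gm46430 and Gm47469 differed at 1, 2 and 4 bases, and those of BC002059 and Gm5165 at 15 each. The annotated transcript of Gm47467 was 95.7% identical to Zfp825 over 396 aligned positions, and that of Gm47469 96.2% over 575. Reads may be split between copies this alike.

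Many members began beside the start of a coding gene that runs the other way. Within 1000 bases, 20 members (17.1%) had a coding start on the opposite strand, 13 head to head and 7 overlapping, against 318 (5.43%) of all 5854 annotated lincRNA genes. Within 5000 bases these were 28 members (23.9%) and 9.12%. The members had passed the limit of 5 reads and the annotated genes had no read limit, so these shares are of unlike sets. The coding partner had more reads than the lincRNA in 18 of the 20 pairs. The median was 45 reads for the partner and 6 for the lincRNA. Examples were 5031425E22Rik (13 and 13 reads), 172 bases from Kmt2e (89 and 48), a histone methyltransferase gene, and Gm13483 (5 and 0), 9 bases from Mmadhc (75 and 18), which acts in vitamin B12 metabolism.

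In the pair with the most lincRNA reads among head-to-head pairs, 2010320M18Rik (ENSMUSG00000100691.1, chr8:70776815-70777823, plus strand) starts 102 bases from Pik3r2, which codes for a regulatory subunit of phosphoinositide 3-kinase. 2010320M18Rik had 37 and 1 reads (43.6 and 1.83 CPM), and Pik3r2 had 15 and 85. The lincRNA was lower in replicate 2 (log2 ratio -3.98, Fisher's exact test, adjusted p = 8.93e-07) and Pik3r2 was called higher. With the length trend removed, 2010320M18Rik did not pass (-0.88, exact binomial test, adjusted p = 0.668). Fam120aos (14 and 1 reads, lower) and Fam120a (18 and 32, higher), 270 bases apart, were also called in opposite directions. Fam120a was picked after its values were seen. The rest of the 5 members tested in pairs within 1000 bases did not show this. Neither 5031425E22Rik nor Kmt2e passed. Gm26582 was higher and its partner Cdkl2 did not pass, and Gm26694 was lower and its partner AC134908.4 was not tested.

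RefSeq promoter sequences of 300 bases matched 58 members by symbol, 13 of them in the 20 pairs. The 13 promoters had a median of 41 CpG dinucleotides, against 8 in the other 45 and 7 over all 32851 promoters of the table. Some of the 45 windows belong to a RefSeq start far from the GENCODE start, as for Gm36723 (51961 bases) and AY036118 (50350 bases). Among the 13, the RefSeq starts of 4831440E17Rik (730 bases) and 5031425E22Rik (-933 bases) also lay away from the GENCODE start, so their windows do not span it. The Sp1 motif GGGCGG, on either strand, was in 11 of the 13, in 12 of the 45 and in 35.7% of all promoters. The ETS motif CCGGAAG was in 3, 7 and 8.86%, and the cAMP response motif TGACGTCA in 2, 1 and 1.79%. TCAAGGTCA, the element of the steroidogenic factor Nr5a1, was in none of the 58 and in 0.423% of all, which says only that these letters are not in these windows. The 2010320M18Rik promoter is printed because it also spans the start of Pik3r2, at position 70776713; it holds 43 CpG, and capitals mark GGGCGG and CCGGAAG on either strand.
2010320M18Rik promoter (RefSeq, GRCm38.p6, chr8:70776612-70776911, plus strand): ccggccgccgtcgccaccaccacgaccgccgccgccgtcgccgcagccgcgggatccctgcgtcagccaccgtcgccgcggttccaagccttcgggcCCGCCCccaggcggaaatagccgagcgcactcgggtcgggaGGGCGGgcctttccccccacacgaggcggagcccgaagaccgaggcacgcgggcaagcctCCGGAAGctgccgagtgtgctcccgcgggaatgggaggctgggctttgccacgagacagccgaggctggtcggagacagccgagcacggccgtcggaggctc

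A further set of members lay across coding exons on the other strand. Annotated transcripts of 19 members were at least 50% covered by a coding transcript at 90% identity or more, 11 in the same direction and 8 in reverse. Of the 8, 6 overlap that coding gene at the same locus, and 6 had all their reads in genomic models. Gm26699 (30 and 4 reads) is the reverse complement of Luc7l2, a splicing factor gene, over 2291 bases, and Gm26582 (2 and 20 reads) of G3bp2, a stress granule gene, over 1935 bases. Gm26825 (5 and 9 reads), on chromosome 5, is a reverse copy of Hspa8, a chaperone gene elsewhere in the genome with 10284 and 5118 reads, at 99.6% identity over 1940 bases.

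Of the 8 reverse copies 5 were tested: 1 was higher, 1 was lower and 3, Gm26733 (26 and 7 reads), Gm26825 and Gm26870 (9 and 1), did not pass, against 64.4% of all genes called. Gm26582 was higher in replicate 2 (log2 ratio 3.49, Fisher's exact test, adjusted p = 2.04e-06). Gm26699 was lower (-2.12, adjusted p = 0.00141). Gm10684, which lies across Jaml and Scn2b and is no such copy, had 29 and 0 reads (at least 6.21-fold lower, Fisher's exact test, adjusted p = 2.53e-06), and entered through replicate 1 alone. Of the genomic reads, 29 of 29 for Gm10684, 30 of 34 for Gm26699 and 20 of 22 for Gm26582 were in models that lay at least 90% inside coding exons of the other strand. Most members across a coding gene were unlike these. All members across a coding gene, with Gm10684, Gm26699 and Gm26582 included, had 304 genomic reads together, of which 88, from 6 genes, were in such models. For the reverse copy Gm26733 it was 7 of 33. In such places reads of the coding gene and of the lincRNA cannot be told apart unless the strand was kept.

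The lincRNA genes were spliced less than coding genes in both libraries. Without Gm10076 and the ribosomal RNA locus, 47.6% of lincRNA reads in replicate 1 (Clopper-Pearson interval 44.9% to 50.3%) and 37.5% in replicate 2 (33.9% to 41.2%) were in models with at least 2 exons. The same share was 93.2% and 95.2% in coding genes and 29.0% and 38.8% in genes annotated as antisense. With the 4 genes included, the spliced share was 17.9% and 22.2%, or 20.0% ± 3.0 (SD, n = 2). Known models took 38.1% and 43.7% of the reads of the 113 genes, incomplete matches 6.50% and 7.44%, NIC models 5.29% and 5.48%, NNC models 12.4% and 12.6%, and genomic models 37.7% and 30.8%. Genomic models took 4.59% and 3.18% of coding reads, and NNC models 2.64% and 4.74%. Reads of 1 gene are not independent, so intervals cover counting error only.

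**Figure D5:**
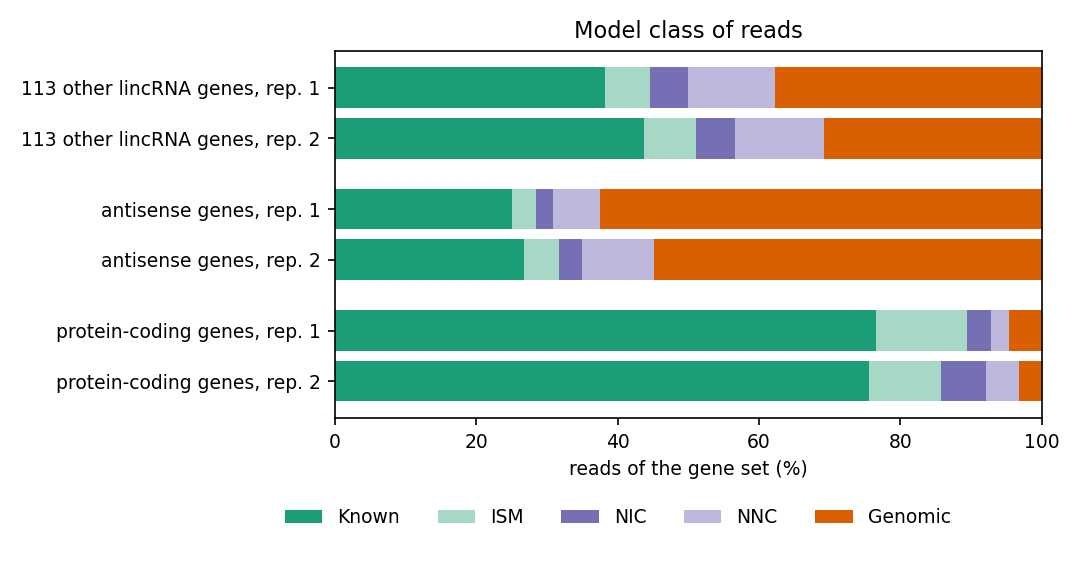
Share of reads (x axis, percent) in each of the authors' model classes for the 113 lincRNA genes other than Gm10076 and the ribosomal RNA locus, for antisense genes and for protein-coding genes, with a bar for each replicate. Genomic models take 37.7% and 30.8% of lincRNA reads, between antisense genes (62.5% and 54.9%) and coding genes (4.59% and 3.18%).

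By gene, 83 members had at least 1 spliced read, 34 had none, and in 23 all reads were spliced; 13 members are annotated with 1 exon only. Known models were read in 67 members and absent in 50. All reads were genomic in 26 members, of which 17 lie across a coding gene on the other strand, against 13 of the other 91. Gm26694 (32 and 7 reads, lower, Fisher's exact test, adjusted p = 0.0138), annotated at chr17:25794894-25964784 across many coding genes, and Gm26848 (23 and 0, at least 4.92-fold lower, adjusted p = 3.87e-05), across Dynlt1a, belonged to this group. Both also overlap genes on the same strand, so their reads are uncertain. These are Fbxl16, Wdr24 and others for Gm26694, and Dynlt1b for Gm26848. Weighted by reads, 22.9% and 0.120% of their genomic models lay in coding exons of the other strand. Of 92 known lincRNA transcripts with reads, 44.6% had a poly(A) signal in the last 50 bases, against 38.5% of all annotated lincRNA transcripts and 72.9% of 15830 coding transcripts with reads.

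Lncbate1 and Gm15767, which have spliced and known reads, were seen only in replicate 1 and passed the read filter through it alone. Lncbate1, known from brown adipose tissue, had 16 reads in replicate 1 and 0 in replicate 2 (at least 3.43-fold lower, Fisher's exact test, adjusted p = 0.00100). The adipocyte genes Adipoq (14 and 0 reads), Cfd (85 and 0) and Plin1 (72 and 23) had lower levels in the same library, and their part in the value was not tested. Gm15767 had 15 and 0 reads (at least 3.21-fold lower, adjusted p = 0.00169, Fisher's exact test). Neither call held with the length trend removed (log2 ratios -0.84 and -0.62).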

How the data were processed

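For each library, 2 files were used: a table deposited by the authors, which gives each transcript model a whole count of reads that is not normalized, and the annotation of the models. The counts were made on mm10 with GENCODE M21, per the text file deposited with them. The source column of the annotation credits unannotated models to TALON, which assigns long reads to transcript models. The sources used here do not name the aligner. Members, lists and tests were chosen with earlier results of these data known. Reads were summed per gene and scaled to 1000000 (CPM). Genes with 10 reads or more were compared by Fisher's exact test (scipy 1.17.1, Python 3.11.15) with Benjamini-Hochberg adjustment over all such genes. Alternatives used TMM factors (edgeR 4.0.16), DESeq2 1.42.0 size factors (both in R 4.3.3) or a running median of 301 genes over length, with an exact binomial test. The tests were checked on simulated data. Genes named are the 15 of highest mean CPM, the 6 highest and 6 lowest called ratios and members of the fixed lists; others are said to be chosen later or illustrate a group. Transcripts were compared with BLAST 2.17.0. Positions are those of GENCODE M21 on mm10, since 85 members have another span in the deposited annotation. Sequences are from GENCODE M21 transcripts (GRCm38) and RefSeq tables. Model use was tested over genes with at least 20 known, NIC or NNC reads in each library. Intervals are 95%, and a fold against 0 reads uses 3 reads in that library.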

Additional observations from a re-analysis of the deposited data

How the results depend on the processing

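Against 23 calls of 56 tested (41.1%; all genes 64.4%), 6 higher and 17 lower, there were 14 of 27 at 20 reads or more (51.9%; all genes 73.8%) and 13 of 21 from known models only (61.9%; all genes 75.6%). Lower genes numbered 27 of 56 with TMM and with DESeq2 scaling (all genes 33.8%), 9 of 37 with the length trend removed (21.2%), 10 of 27 at 20 reads or more (33.1%), 9 of 21 from known models (33.7%) and 11 of 38 without genomic models (29.2%). Higher genes numbered 13 of 37 with the length trend removed (19.9%). The median log2 ratio of the members turned to 0.89 with the length trend removed and was -1.43 from known models. The sign turned for Dubr with TMM (-0.25), DESeq2 (-0.26) and length (-1.33), for Gm28382 with TMM (-0.38), DESeq2 (-0.40) and without genomic models (-0.46), for Lncpint (1.98) and Pvt1 (2.85) with length and without genomic models (0.14 and 0.59), for E330017L17Rik (0.72) and Gm36723 (3.69) with length, and for Tmem250-ps from known models (5.09) or without genomic models (5.09), both set by the 1 CPM added, since replicate 1 had 0 such reads. The cause was not tested. Of 166 values of 24 named genes under alternatives, 135 kept direction and side of the threshold.

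Shares are means of both libraries. Leaving out either replicate gave a read share of 0.221% to 0.415%. Without Gm10076 and the ribosomal RNA locus, a choice made after seeing the data, the read share was 0.143%, known models 40.9%, incomplete matches 6.97%, NIC 5.38%, NNC 12.5%, genomic 34.2% and spliced reads 42.5%, against 0.318%, 71.7%, 3.42%, 2.61%, 6.06%, 16.2% and 20.0%. Leaving out the member with the most reads gave 63.5% known, 21.2% genomic and 26.3% spliced; the median spliced share of members with at least 10 reads was 41.9%. Model use gave 0 calls among lincRNA genes at either read minimum by Fisher's exact test, with 1 unadjusted p under 0.05. No paired analysis was possible because the series has 1 group. With no filter on reads, 26 of 117 were called (22.2%), 7 higher and 19 lower. Of all 16745 genes with at least 1 read, 37.5% were called, but the members all had at least 5 reads, so the 2 shares have unlike read limits. At 1.18 and 1.83 CPM per read, small differences of members with few reads were not detectable.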

Other observations

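Some members lie at genes of adrenal or vascular cells, and were picked after their values were seen. Gm17322 (4 and 5 reads, all spliced and known) overlaps Cyp11a1, the gene of the first enzyme of steroid synthesis, on the same strand. Gm36169 (7 and 1 reads, all spliced) starts 61207 bases from Mrap, which codes for the accessory protein of the corticotropin receptor and had 207 and 14 reads. Carmn (13 and 8 reads) and Bvht (8 and 0), known from smooth muscle and heart, are neighbours on the same chromosome. 2900076A07Rik (8 and 12 reads) holds the microRNA hairpin Mir1839, and 5330434G04Rik (3 and 4) holds Mir325. None of these but Carmn and 2900076A07Rik had the reads to be tested, and neither of the latter passed (log2 ratios -0.06 and 1.14), although both were higher with the length trend removed.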
